A study of Mus musculus with 9 samples.

Results

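Repeated ovalbumin eye drops were compared with no challenge in the conjunctiva of control mice, across all genes, using 6 of the study's 9 messenger RNA libraries: 3 challenged and 3 unchallenged control pools. Conjunctiva is the mucous membrane that lines the inner eyelids and the front of the sclera. Every pool joined the tissue of 3 mice. As controls served littermates of genotype Vegfr3 fl/fl (the samples' genotype field reads Vegfr3 fl/f), on a C57BL/6j background, that carried no Cre recombinase, so their Vegfr3 gene was floxed and intact. They had nonetheless received 5 intraperitoneal tamoxifen injections of 75 mg/kg at week 5, and at week 6 both groups were immunized with ovalbumin (OVA, 250 µg), pertussis toxin (PTX, 0.3 µg) and aluminum hydroxide (5 mg). The difference between the groups was the challenge, which began 14 days later and gave 250 µg of OVA in 5 µL to the right eye daily for 28 days, with saline in the other eye. The eye and the animals that gave the unchallenged pools are not stated in the labels, nor is whether pools with the same number share mice or a day. The protocol speaks of 3 replicate experiments but does not tie them to the numbers. P-values therefore measure the spread between pools of mice and not between single mice.

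Ovalbumin with alum is a standard model of allergic eye disease. In such disease IgE on mast cells triggers an early reaction, and T helper 2 cytokines later draw eosinophils. CD8 T cells and natural killer cells are a different arm of immunity: they kill with granzymes and perforin and secrete interferon-gamma, which acts on nearby cells through STAT and IRF transcription factors. Those factors bind 2 kinds of short promoter sequence, the interferon-stimulated response element (ISRE) and the gamma-activated site (GAS), and switch on guanylate-binding proteins, antiviral genes and antigen presentation.

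Because 3 groups of interferon-induced genes were higher in every same-number pair of pools, the promoters of 3 of their members are shown with the core of the response element, in capitals. The core is GAAA, any 2 bases and GAAA, and it was sought on both strands, so on the printed strand it can read TTTC, any 2 bases and TTTC. Each sequence runs 5′ to 3′ along the gene from 250 bases before to 50 bases after the start (RefSeq, build GRCm38.p6). Gbp2 encodes a guanylate-binding protein (chr3:142620413-142620712, plus strand), Oas1a a sensor of double-stranded RNA (chr5:120907476-120907775, minus strand) and B2m the light chain of MHC class I (chr2:122147437-122147736, plus strand).
Gbp2: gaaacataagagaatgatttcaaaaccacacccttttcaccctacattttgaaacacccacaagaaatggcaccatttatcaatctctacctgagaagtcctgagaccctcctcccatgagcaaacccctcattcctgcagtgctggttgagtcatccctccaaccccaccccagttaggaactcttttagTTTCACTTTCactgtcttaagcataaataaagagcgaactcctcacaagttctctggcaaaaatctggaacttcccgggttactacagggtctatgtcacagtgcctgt
Oas1a: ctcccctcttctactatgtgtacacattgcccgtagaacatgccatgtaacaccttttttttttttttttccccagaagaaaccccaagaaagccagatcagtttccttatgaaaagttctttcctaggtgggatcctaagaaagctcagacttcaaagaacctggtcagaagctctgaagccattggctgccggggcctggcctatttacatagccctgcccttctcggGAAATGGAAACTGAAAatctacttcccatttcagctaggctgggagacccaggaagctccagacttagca
B2m: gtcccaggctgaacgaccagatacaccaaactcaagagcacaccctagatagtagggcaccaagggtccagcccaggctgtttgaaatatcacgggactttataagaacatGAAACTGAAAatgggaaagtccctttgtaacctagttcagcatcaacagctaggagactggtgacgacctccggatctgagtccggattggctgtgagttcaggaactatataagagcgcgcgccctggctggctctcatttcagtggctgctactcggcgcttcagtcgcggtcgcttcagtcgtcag
The core begins 59 bases before the start in Gbp2, 20 before it in Oas1a and 139 before it in B2m. Oas1a holds 2 overlapping copies.

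Among the guanylate-binding proteins and the immunity-related GTPases (IRG), both of which attack pathogens inside cells, 10 of the 11 tested genes with a promoter in the RefSeq table held the core (90.9%). The core was in 4.0% of the 11843 tested genes with a promoter there. The windows around it are shown for all 10 to let the core be compared among the members. This display was chosen after that share was seen.
Gbp2: ttttagTTTCACTTTCactgtc
Gbp2b: ttctaaTTTCACTTTCttcttt
Gbp3: acacagTTTCAGTTTCTATTTCccagat
Gbp5: gtgtagTTTCAATTTCagttta
Gbp7: gtgcagTTTCAGTTTCagttct
Igtp: ggaactGAAACTGAAAgctgtt
Irgm1: tttcaaGAAATAGAAACCGAAActgatt
Irgm2: ggaactGAAACTGAAAgctgtt
Tgtp1: ggaatcGAAACTGAAAcctacc
Tgtp2: ggaatcGAAACCGAAAcctact
Igtp and Irgm2 share the whole window, and the windows of Tgtp1 and Tgtp2 are nearly the same. Whether reads are split between the members of these pairs was not tested.

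The tissue label was checked against conjunctival keratins and mucin, genes named after their values were seen. Krt4 and Krt13, keratins of mucosal epithelium, were at 3078 to 4414 CPM and 2338 to 3922 CPM in the 6 pools (CPM, counts per 1000000 counts, with library sizes scaled by TMM factors). Krt5, a basal keratin, was at 6271 to 14336 CPM. Muc5ac, the goblet cell mucin, was at 46.8 to 888 CPM. Flt4, the gene of Vegfr3, was at 18.4, 26.7 and 13.5 CPM in unchallenged and 13.3, 20.2 and 20.1 CPM in challenged pools 1 to 3, so the groups overlapped. Total counts were 16490050 to 24746836 per pool, and 3 counts, the floor used for a count of 0, came to 0.115 to 0.185 CPM. Such floors, and the intervals given further on, hold counting error alone, because reads that carry no molecular identifier do not each stand for 1 molecule.

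The pools differed along 2 directions, the challenge and the number. On the first principal component of log2 CPM (45.6% of the variance) each challenged pool lay to the right of the unchallenged pool with its number. Challenged pool 1 stood apart at 90.15, against 8.77 and 19.41 for challenged pools 2 and 3 and -68.59 to 1.15 for the unchallenged pools. On the second component (26%) numbers 1, 2 and 3 came in that order in both groups, from -46.54 to 22.2 without and from -19.21 to 66.64 with challenge. Across the 15613 tested genes, deviations from the group mean correlated at 0.443, 0.229 and 0.461 between pools with the same number, and at -0.44 to 0.0806 between pools with different numbers. All 3 same-number values were above the limit of 0.1 set for pairing, and every control pool correlated best with its own number. The pools were therefore also compared within numbers. Whether the knockout pools follow their numbers was not tested in this way, although the blocked fit of 9 libraries uses their numbers too. In plain correlations of log2 CPM, knockout pool 1 was nearer to unchallenged and challenged pools 2 (0.9674 and 0.9675) than to pools 1 (0.9629 and 0.9345). Knockout pool 2 was nearer to pools 3 (0.9688 and 0.9665) than to pools 2 (0.9559 and 0.9629). Knockout pool 3 was nearest to its own number in each control group (0.9674 and 0.9544).

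**Figure D1:**
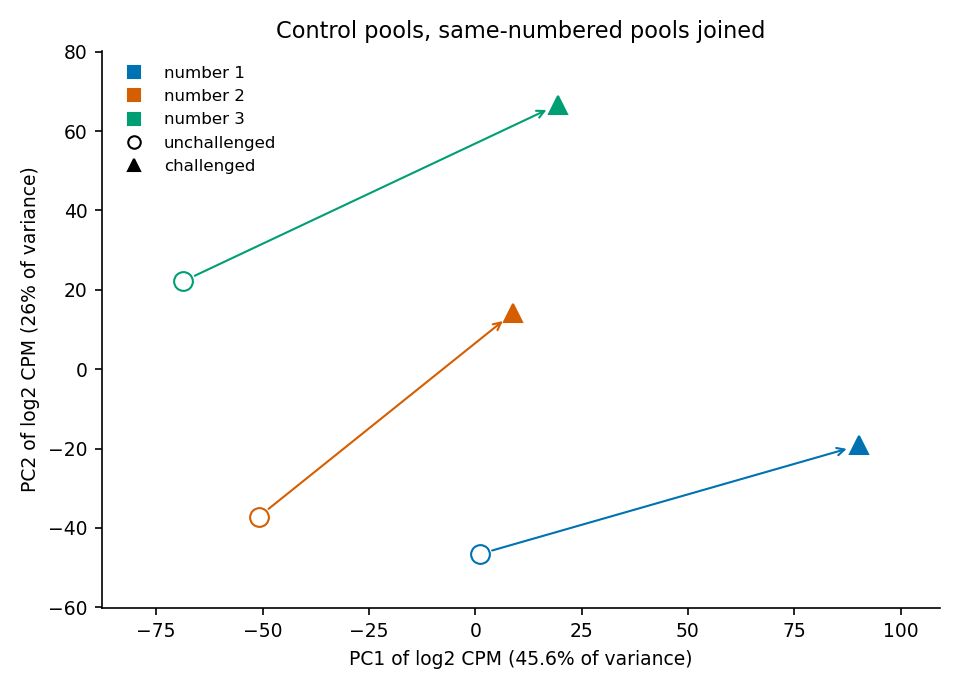
Principal components 1 and 2 of log2 CPM in the 6 control pools, with an arrow from each unchallenged pool (circle) to the challenged pool (triangle) of its number. The 3 arrows point the same way, to the right and upwards, and challenged pool 1 lies farthest right at 90.15.

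The 4 Y-linked genes followed the number and not the challenge. Uty, which encodes a histone demethylase, was at 42.7, 22 and 8.76 CPM in unchallenged and 34.7, 19.3 and 8.15 CPM in challenged pools 1 to 3. Eif2s3y, which encodes a translation initiation factor subunit, was at 65.4, 44.4 and 24.2 CPM and at 71.9, 50.5 and 29.9 CPM. In both genes pool 1 was highest and pool 3 lowest within each group, and the groups overlapped. Ddx3y, an RNA helicase gene, was at 94.1, 57.1 and 51.7 CPM and at 122, 57.5 and 49.1 CPM. Kdm5d, another demethylase gene, was at 40.6, 31.2 and 18.6 CPM and at 32.6, 33.8 and 16.2 CPM. The labels give no sex.

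**Figure D2:**
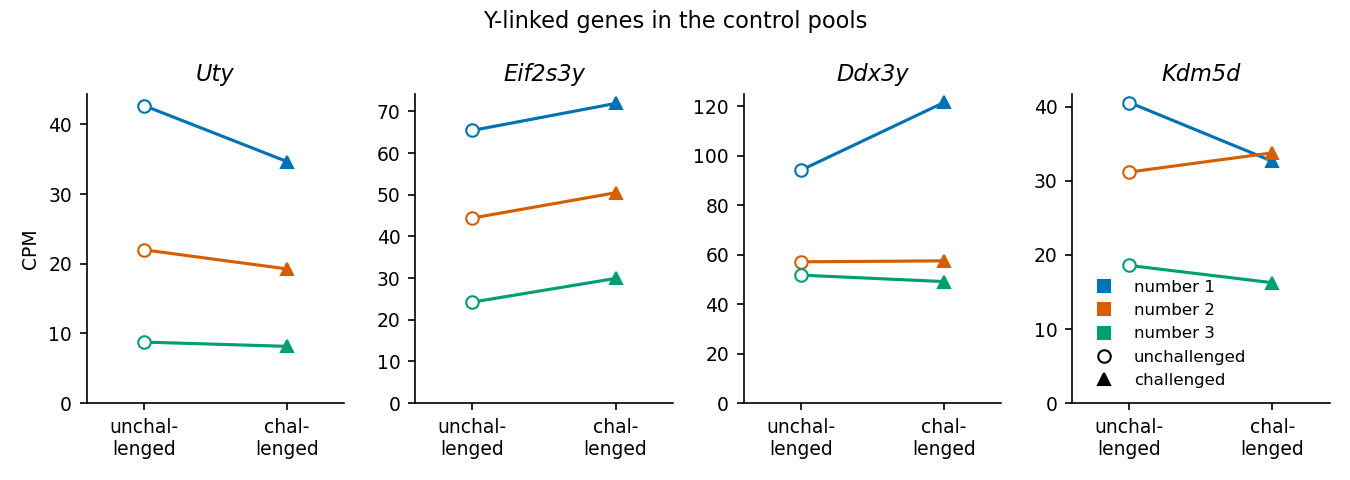
CPM (linear axis from 0) of 4 Y-linked genes in the unchallenged (circle) and challenged (triangle) control pools, with lines joining pools of the same number. The lines run nearly flat, and number 3 is lowest in all 4 genes in both groups.

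Without the number as a block, 10 genes passed the edgeR quasi-likelihood test at an adjusted p of 0.05 (0.064% of those tested), 9 higher (0.0576%) and 1 lower (0.0064%). At an unadjusted p of 0.05 the shares were 6.77% higher and 5.65% lower. With the number as a block 267 passed (1.71%), of which 185 were higher (1.18%) and 82 lower (0.525%), and all 10 were among them. With the block in the 6 control pools alone 498 passed (3.19%), 350 higher and 148 lower. This last fit shared 229 calls with the blocked fit of 9 libraries, 85.8% of the 267 and 46% of the 498. The blocked calls were large: 248 of the 267 differed at least 2-fold, with a median log2 fold change of 1.72 for the higher and -1.94 for the lower genes. Of the 267, 233 had groups that did not overlap, against 15.7% of all tested genes. In 34 the groups overlapped, so that only the comparison within numbers set them apart. The 267 were picked by a test on these same pools, which favours large and separated differences. Their size and separation are therefore no further support. The counts of passing genes depended on single pools. Without unchallenged pool 2 or 3, 0 genes passed in either fit (edgeR; 1404 and 1631 had an unadjusted p under 0.05 without the block, and 2044 and 1893 with it). Without challenged pool 3 it was 1 without the block and 5 with it. The balance of the blocked calls turned without unchallenged pool 1, to 109 higher and 201 lower of 310 (53 and 69 of 122 without the block), and without challenged pool 1, to 36 higher and 52 lower. Without challenged pool 2 it was 286 higher and 43 lower of 329 (34 and 1 of 35 without the block). Without challenged pool 1 the counts were 8 and 88, and without the third knockout pool 1 and 30. The knockout pools help to estimate the spread and, in the blocked fit, the effect of the number. Without the block, limma-voom called members of 2 of the 42 lists, 3 cytotoxic genes and 1 gene of T cell receptor signalling. Below, DESeq2 counts are without the block, and a gene is said to rise or fall where it passed in the blocked fit of 9 libraries, and adjusted p-values are named unblocked or blocked. Log2 fold changes are from the fit without the block unless the block is named. Member counts below can be set beside shares of all tested genes. With the block 1.18% were higher and 0.525% lower, and with it in 6 pools 2.24% and 0.948%. All challenged pools were above all unchallenged pools in 7.2% and below them in 8.51%. In all 3 pairs 21.4% were higher and 22.8% lower.

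Before any test, the size of the difference varied between pairs. In pair 1, 1331 genes were at least 2-fold higher and 1183 at least 2-fold lower with challenge. In pair 2 it was 797 and 1083, and in pair 3 1392 and 1033. The 3 sets of pair differences correlated across genes at 0.406 (pairs 1 and 2), 0.472 (pairs 1 and 3) and 0.552 (pairs 2 and 3). Genes are not independent replicates, and the 3 pairs share no pool. In 44.1% of the tested genes the 3 pairs had the same direction, 3336 genes higher and 3553 lower.

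Skeletal muscle and fat transcripts were lower in the challenged pools. Muscle genes encode the contractile apparatus and the enzymes that feed it. Their summed level was 2550, 7830 and 3980 CPM in unchallenged and 1520, 1020 and 517 CPM in challenged pools 1 to 3. All 3 challenged pools were below all unchallenged pools, and unchallenged pool 2 was highest. Of 23 tested muscle genes 8 fell with the block (0 without it in edgeR, where 22 had an unadjusted p under 0.05 while DESeq2 gave 21 calls), 6 fell with the block in 6 pools, 20 had all challenged pools below all unchallenged pools (8.51% of all tested genes did) and 21 were lower in all 3 pairs. Their median log2 fold change was -2.29, against -0.01 for all tested genes, and -1.72 without unchallenged pool 2. By pair the median was -0.72, -2.92 and -2.93. Mb (myoglobin) was at 145, 472 and 228 CPM in unchallenged and 54.5, 81.7 and 33.7 CPM in challenged pools. The log2 fold change of Mb was -2.31 (SE 0.47, adjusted p = 0.101 unblocked and 0.0268 blocked), and -1.72 without unchallenged pool 2. Myl1, a myosin light chain, was at 347, 642 and 327 CPM and at 136, 134 and 44.5 CPM (log2 -2.07, SE 0.45, adjusted p = 0.101 unblocked and 0.0200 blocked). Sh3bgr, Rpl3l, Cox6a2, Ckmt2, Smtnl1, Fsd2, Itgb1bp2 and Actc1, further genes of striated muscle, fell with blocked log2 fold changes of -2.35 to -2.70. With the block in the 6 control pools Cox6a2, Fsd2 and Rpl3l did not pass (adjusted p = 0.0512, 0.0590 and 0.0639). All 8 stood outside the muscle list and were named for the size of their fall. Without unchallenged pool 2, Actc1 was at a log2 fold change of -1.46 against -2.27 with it.

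Adipocyte genes were lower as well. Their summed level was 183, 252 and 70.3 CPM in unchallenged and 70.1, 57.8 and 43.8 CPM in challenged pools, so the lowest unchallenged and the highest challenged pool were nearly level. Of 11 tested members 5 fell with the block (0.525% of all tested genes did) and 7 with the block in 6 pools. Without the block 0 passed in edgeR, where 8 had an unadjusted p under 0.05. In 5 all challenged pools were below all unchallenged pools (8.51% of all tested genes were). The median log2 fold change was -2.98, and -1.90 in the setting that moved it most. Pck1, which encodes a gluconeogenic and glycerol-forming enzyme, was at 5.17, 15.6 and 0.42 CPM in unchallenged and 0.247, 0.358 and 0 CPM in challenged pools. Pck1 had a log2 fold change of -5.05 (SE 1.44, adjusted p = 0.176 unblocked and 0.0186 blocked), and -3.70 without unchallenged pool 2. Cfd (adipsin) was at 11.5, 19.6 and 1.05 CPM and at 0.494, 0.627 and 0.228 CPM, and Cidec, a lipid droplet protein gene, at 5.02, 10.8 and 0.42 CPM and at 0.371, 0.403 and 0.114 CPM (adjusted p = 0.178 and 0.195 unblocked, 0.0331 and 0.0344 blocked). In these 3 genes unchallenged pool 3 was far below the other unchallenged pools. Car3, a carbonic anhydrase of fat and muscle, was at 36.6, 36.0 and 13.7 CPM and at 4.32, 3.67 and 2.96 CPM (log2 -2.98, SE 0.45, adjusted p = 0.0676 unblocked and 0.00851 blocked). In bulk tissue, fewer cells of a type and less RNA per cell cannot be told apart. The part of muscle and fat in the leukocyte results was not tested. Among the pairs, the smallest fall of the muscle list (-0.72, pair 1) came with a rise of the cytotoxic list of 3.50, and the larger falls (-2.92 and -2.93) with rises of 3.71 and 3.75. The adipocyte list had another order, with pair medians of -2.97, -3.29 and -1.72, so its smallest fall came with the largest cytotoxic rise.

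**Figure D3:**
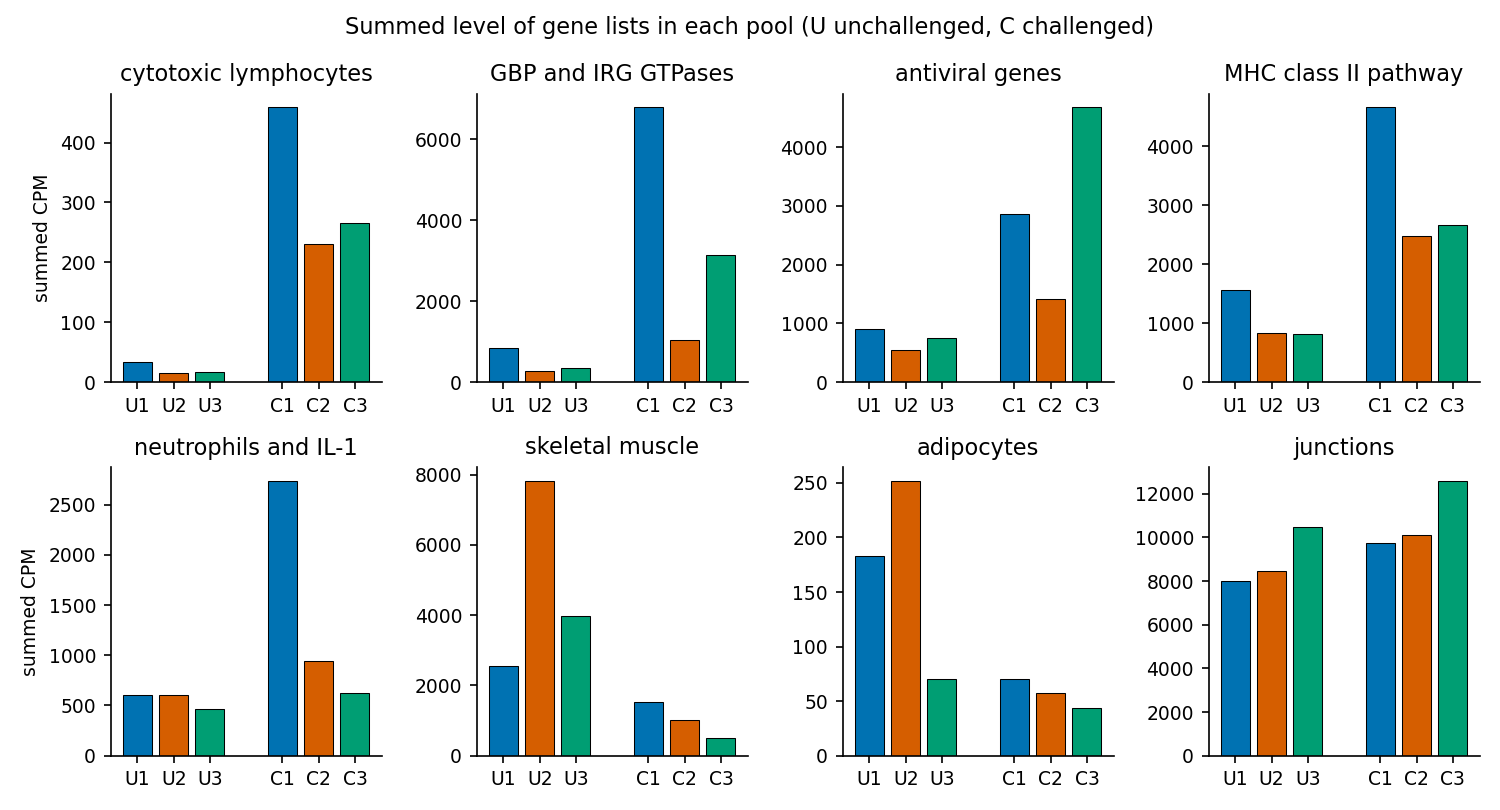
Summed CPM of 8 gene lists in each of the 6 control pools (bars from 0; U unchallenged, C challenged; colours mark the number). Cytotoxic, guanylate-binding protein and MHC class II sums are above all unchallenged pools in each challenged pool, muscle and adipocyte sums below, and the neutrophil sum is high in challenged pool 1 at 2740 CPM.

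Cytotoxic lymphocyte genes were higher in each pair, and 11 of 16 rose. Their summed level was 33.9, 15.5 and 16.4 CPM without and 459, 230 and 266 CPM with challenge. Of 16 tested members 6 passed without the block, 11 with it and 13 with the block in the 6 control pools. In 15 of 16 all challenged pools were above all unchallenged pools (7.2% of all tested genes were), and in 16 of 16 each pair went up. The median log2 fold change was 3.72, with pair medians of 3.50, 3.71 and 3.75. It was 3.17 without challenged pool 1 and 4.17 without unchallenged pool 1.

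Granule genes are what these cells kill with. Gzma, a granule protease, was at 4.49, 1.38 and 1.31 CPM in unchallenged and 145, 65.1 and 78.3 CPM in challenged pools (log2 5.34, SE 0.64, adjusted p = 0.0339 unblocked and 0.0124 blocked). Gzmb, the protease that triggers caspases in target cells, was at 2.67, 0.689 and 0.472 CPM and at 91.2, 22.7 and 41.0 CPM (1.28 ± 1.21 and 51.6 ± 35.5 CPM, SD, n = 3). The log2 fold change of Gzmb was 5.35 (SE 0.83, adjusted p = 0.0728 unblocked and 0.0268 blocked), and 4.66 without challenged pool 1. In both genes the lowest challenged pool was far above the highest unchallenged pool, and challenged pool 1 was highest. Prf1 (perforin), which opens the target membrane, was at 0.732, 0.383 and 0.367 CPM and at 8.77, 3.22 and 5.30 CPM (log2 3.54, SE 0.62, adjusted p = 0.0839 unblocked and 0.0379 blocked). Prf1, Ctsw and Klrk1 are named here after their values were seen. Nkg7, a granule membrane protein, was at 1.93, 0.689 and 0.997 CPM and at 21.5, 9.36 and 13.3 CPM (log2 3.62, SE 0.47, adjusted p = 0.0405 unblocked and 0.0139 blocked). Ctsw, a cathepsin of killer cells, was at 1.57, 0.536 and 0.525 CPM and at 14.9, 7.61 and 7.47 CPM (log2 3.51, SE 0.61, adjusted p = 0.0839 unblocked and 0.0206 blocked).

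The tested surface receptors of killer cells followed. Cd8a and Cd8b1 form the CD8 co-receptor. Cd8a was at 3.29, 2.26 and 2.57 CPM in unchallenged and 50.7, 23.2 and 28.8 CPM in challenged pools, and Cd8b1 at 1.05, 0.421 and 0.997 CPM and 17.7, 11.9 and 12.8 CPM (log2 3.66 and 4.12, adjusted p = 0.0339 and 0.0405 unblocked, 0.0200 and 0.0217 blocked). Neither gene overlapped between groups, and each was highest in challenged pool 1. Klrc1, which encodes the NKG2A receptor, was at 0.888, 0.191 and 0.262 CPM and at 22.7, 3.40 and 4.67 CPM (log2 4.53, SE 0.88, adjusted p = 0.0949 unblocked and 0.0221 blocked). Without challenged pool 1 it was 3.18. Klrk1, which encodes NKG2D, was at 4.65, 0.765 and 0.787 CPM and at 12.9, 4.97 and 4.90 CPM (adjusted p = 0.308 unblocked and 0.0414 blocked), so that unchallenged pool 1 nearly reached challenged pools 2 and 3. Fasl, the ligand of the death receptor Fas, was at 0.523, 0.115 and 0.157 CPM and at 8.34, 1.39 and 2.34 CPM (log2 3.92, SE 0.86, adjusted p = 0.102 unblocked and 0.0189 blocked; 2.81 without challenged pool 1). Itgae, the CD103 integrin chain that binds epithelial cadherin, was at 5.54, 3.25 and 5.35 CPM and at 27.0, 22.1 and 20.3 CPM (log2 2.30, SE 0.29, adjusted p = 0.0339 unblocked and 0.0146 blocked). Its challenged pools lay close together. The receptor genes Ncr1 and Klrg1, named after their values were seen, had too few counts to be tested. Ncr1 had 17 counts in the unchallenged pools, 16 of them in pool 1, and 23 in the challenged pools. Klrg1 had 3 and 38.

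Genes of the T cell receptor and its signalling chain were higher with pair medians of 2.64, 1.69 and 1.65. Of 18 tested members 1 passed without the block, 9 with it and 10 with the block in 6 pools. Over all tested genes 1.18% were higher with the block and 2.24% with it in 6 pools. Of the 18, 15 had all challenged pools above all unchallenged pools (7.2% of all tested genes did). The log2 fold changes of the 18 had a median of 2.11, and 1.38 without challenged pool 1. Cd3d, a chain of the receptor complex, was at 1.62, 0.727 and 1.15 CPM in unchallenged and 9.82, 5.69 and 6.44 CPM in challenged pools (log2 2.65, SE 0.39, adjusted p = 0.0667 unblocked and 0.0146 blocked). Lck, the kinase that starts the signal, was at 1.67, 1.34 and 2.36 CPM and at 16, 9.41 and 13.2 CPM (log2 2.84, SE 0.32, adjusted p = 0.0246 unblocked and 0.0110 blocked). Ptprc, which encodes the pan-leukocyte phosphatase CD45, showed what the pairing adds. It was at 55.2, 21.6 and 13.8 CPM and at 217, 65.2 and 51.1 CPM: the groups overlapped, since unchallenged pool 1 was above challenged pool 3, but each pair rose. Its adjusted p was 0.257 without and 0.0102 with the block (blocked log2 fold change 1.82, SE 0.17). Without the block its log2 fold change of 1.88 was 0.95 without challenged pool 1. Of 24 tested genes with symbols that begin like those of immunoglobulin and T cell receptor segments and constant chains, 7 passed with the block. Ighm and Igkc, both constant chains, were among the 7. The genes were matched by the first letters of the symbol alone, and reads of segments can be split between near-identical copies.

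Checkpoint and regulatory T cell genes, which restrain immune responses, had log2 fold changes with a median of 2.44, or 1.11 without challenged pool 1. Of 15 tested, 2 rose with the block. Cd274 (PD-L1), the ligand that restrains activated T cells, was at 79.0, 46.4 and 48.2 CPM in unchallenged and 603, 114 and 227 CPM in challenged pools (log2 2.44, SE 0.52, adjusted p = 0.101 unblocked and 0.0367 blocked; 1.56 without challenged pool 1). Havcr2 (TIM-3), a checkpoint receptor, was at 2.61, 1.11 and 1.15 CPM and at 19.3, 5.15 and 6.16 CPM (adjusted p = 0.101 unblocked and 0.0217 blocked; log2 2.65, and 1.80 without challenged pool 1). Foxp3, the defining factor of regulatory T cells and named after its values were seen, was at 0.888, 0.459 and 0.420 CPM and at 1.92, 0.717 and 0.969 CPM, which overlapped and did not pass (adjusted p = 0.553 unblocked and 0.312 blocked).

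Of the cytokines of lymphocytes, 15 of 17 entries were among the deposited genes and 10 had enough counts to be tested. In edgeR 0 passed with the block, 4 had an unadjusted p under 0.05 without it, and 1 passed with the block in 6 pools. DESeq2 called 2. Ifng, the interferon-gamma gene, had 2 counts in the unchallenged and 416 in the challenged pools, a ratio of 239 (95% exact counting interval 65.7 to 1980). Of the 416, 340 were in challenged pool 1, 36 in pool 2 and 40 in pool 3. Its adjusted p in edgeR was 0.0949 without the block, 0.0536 with it and 0.0236 with the block in 6 pools. Il21, a cytokine of helper T cells that helps B cells, had 0 and 138 counts, at least 52.8-fold higher if 3 counts over the group are taken as the floor, with 125 of the 138 in challenged pool 1. The type 2 cytokine genes were near the floor: Il13 had 4 counts in the unchallenged and 34 in the challenged pools, and Il5 had 16 and 12. No difference in Il5 was detectable at this depth.

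Chemokines that draw T cells and monocytes were higher in each pair, and most so in pair 1. Of 13 tested members 0 passed without the block (edgeR; 12 had an unadjusted p under 0.05; DESeq2 calls numbered 9), 4 with it and 7 with the block in 6 pools, and 13 of 13 were higher in all 3 pairs. The median log2 fold change was 3.28, and 1.5 without challenged pool 1, with pair medians of 4.03, 1.77 and 2.15. Ccl5, a chemokine of killer cells, was even across pools, at 3.66, 3.44 and 2.57 CPM in unchallenged and 41.3, 48.4 and 43.0 CPM in challenged pools (3.22 ± 0.576 and 44.2 ± 3.67 CPM, SD, n = 3). The adjusted p of Ccl5 in edgeR was 0.00674 without and 0.00418 with the block (log2 3.77, SE 0.32). It belongs to the cytotoxic list and is not among the 13. Ccl4 and Ccl3 are chemokines that activated T cells and macrophages secrete. Ccl4 was at 0.105, 0.115 and 0.157 CPM and at 26.1, 4.84 and 2.28 CPM (log2 6.4, SE 1.12, adjusted p = 0.0839 unblocked and 0.0303 blocked; 4.77 without challenged pool 1). Ccl3 was at 0.0523, 0.383 and 0 CPM and at 17.3, 3.90 and 2.96 CPM (log2 5.60, SE 1.06, adjusted p = 0.0949 unblocked and 0.0309 blocked), with 4.39 without challenged pool 1 and 7.94 without unchallenged pool 2. Ccl8, a ligand that draws monocytes, was at 56.6, 18.6 and 12.3 CPM and at 132, 94.8 and 70.4 CPM, with the larger steps in pairs 2 and 3 (adjusted p = 0.237 unblocked and 0.0149 blocked). Cxcl9 and Cxcl10, interferon-induced ligands of CXCR3 and named after their values were seen, differed widely among the challenged pools. Cxcl10 was at 1.10, 0.421 and 1.57 CPM and at 1058, 4.57 and 44.6 CPM (log2 8.52, and 4.6 without challenged pool 1). Cxcl9 was at 6.48, 1.07 and 3.2 CPM and at 426, 8.73 and 41.6 CPM (log2 5.49, and 2.82 without challenged pool 1). Neither passed over 9 libraries with the block (adjusted p = 0.129 for Cxcl10 and 0.12 for Cxcl9).

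Guanylate-binding proteins and IRG GTPases were higher in each pair in 17 of 17 tested members, against 21.4% of all tested genes. In 10 of the 17 all challenged pools were above all unchallenged pools, and in the others the groups overlapped. Their summed level was 834, 264 and 341 CPM in unchallenged and 6790, 1030 and 3130 CPM in challenged pools. The median log2 fold change was 3.27, with 3.08, 2.12 and 4.10 in pairs 1 to 3, and 1.98 without challenged pool 1. None of the 17 passed in the edgeR fits of 9 libraries with or without the block (17 had an unadjusted p under 0.05 without it), and 14 passed with the block in the 6 control pools. DESeq2 without the block called 13.  Gbp2, whose promoter is printed above, was at 173, 72.3 and 123 CPM in unchallenged and 1780, 339 and 932 CPM in challenged pools (log2 3.05, SE 0.67, adjusted p = 0.102 unblocked and 0.0673 blocked). With the block in 6 pools the adjusted p of Gbp2 was 0.0114, and without challenged pool 1 its log2 fold change was 2.37. Irgm1, a regulator of the other IRG proteins, was at 92.4, 33.8 and 49.6 CPM and at 784, 100 and 342 CPM (log2 2.80, SE 0.73, adjusted p = 0.139 unblocked and 0.104 blocked). Neither gene overlapped between groups, and in both challenged pool 1 was highest and challenged pool 2 lowest.

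Antiviral interferon-stimulated genes had another order among the pools: challenged pool 3 was highest. Their summed level was 898, 549 and 757 CPM without and 2860, 1420 and 4680 CPM with challenge, and the pair medians were 1.69, 1.41 and 2.97. Of 23 tested members 23 were higher in all 3 pairs and 21 did not overlap between groups, while 0 passed without the block (edgeR; 23 had an unadjusted p under 0.05; DESeq2 calls numbered 20), 3 with it and 16 with the block in 6 pools. Their log2 fold changes had a median of 2.21, and 1.44 without challenged pool 3. Oas1a was at 8.41, 4.93 and 7.24 CPM in unchallenged and 56.9, 39.5 and 122 CPM in challenged pools (log2 3.41, SE 0.57, adjusted p = 0.0839 unblocked and 0.0367 blocked). Zbp1, a sensor of Z-form nucleic acids, was at 28.8, 14.0 and 18.9 CPM and at 124, 88.5 and 223 CPM (log2 2.82, SE 0.45, adjusted p = 0.0734 unblocked and 0.0349 blocked). Oas1g, a close relative of Oas1a whose reads can be confused with it, was at 1.93, 1.61 and 1.68 CPM and at 17.1, 6.81 and 34.8 CPM (adjusted p = 0.0839 unblocked and 0.0389 blocked). Slfn4, an interferon-induced gene of myeloid cells outside this list, was at 5.64, 3.25 and 1.26 CPM and at 272, 11.5 and 190 CPM (adjusted p = 0.0933 unblocked and 0.0475 blocked), and with the block in the 6 control pools it did not pass (adjusted p = 0.0667).

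The interferon receptors, kinases and factors, which carry the signal to these promoters, had smaller values. Of 15 tested members 0 passed with the block over 9 libraries (edgeR; 10 had an unadjusted p under 0.05 without it, and DESeq2 called 6), 2 with the block in 6 pools, and the median log2 fold change was 0.99 (0.41 without challenged pool 1). Irf1, a transcription factor induced by interferon-gamma, was at 130, 126 and 155 CPM in unchallenged and 486, 228 and 267 CPM in challenged pools (adjusted p = 0.119 unblocked and 0.0903 blocked).

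The 2 antigen presentation lists had like medians in the 3 pairs, but single members could differ more. B2m, for 1, had log2 ratios of 1.37, 2.58 and 2.79 in pairs 1 to 3. The summed level of the class I list was 5370, 2500 and 3820 CPM in unchallenged and 12900, 8850 and 14000 CPM in challenged pools. The MHC class I and immunoproteasome genes, which load and show peptides to CD8 T cells, had pair medians of 1.23, 1.45 and 1.45. Of 20 tested members 20 were higher in all 3 pairs and 19 did not overlap between groups. Counts of passing genes were 0 without the block (edgeR; 19 had an unadjusted p under 0.05; DESeq2 calls numbered 14), 3 with it and 18 with the block in 6 pools. B2m was at 1271, 355 and 407 CPM in unchallenged and 3278, 2122 and 2819 CPM in challenged pools (log2 2.02, SE 0.47, adjusted p = 0.113 unblocked and 0.0499 blocked; 2.85 without unchallenged pool 1). H2-T22, a class I molecule, was at 121, 65.7 and 83.1 CPM and at 289, 218 and 385 CPM (log2 1.72, SE 0.32, adjusted p = 0.0949 unblocked and 0.0465 blocked). Psme2, part of the proteasome activator, was at 63.5, 58.5 and 79.0 CPM and at 149, 113 and 170 CPM (log2 1.10, SE 0.21, adjusted p = 0.0949 unblocked and 0.0253 blocked).

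MHC class II genes, which show peptides to CD4 T cells, rose in 7 of 12 tested members with the block (0 without it, where 9 had an unadjusted p under 0.05 in edgeR and DESeq2 called 7). Their summed level was 1570, 838 and 814 CPM in unchallenged and 4660, 2470 and 2670 CPM in challenged pools, and the pair medians were 1.55, 1.47 and 1.66. Cd74, the invariant chain, was at 605, 390 and 363 CPM and at 1809, 1170 and 1270 CPM (log2 1.65, SE 0.27, adjusted p = 0.0794 unblocked and 0.0196 blocked). H2-Aa was at 314, 123 and 112 CPM and at 934, 376 and 356 CPM (log2 1.60, SE 0.46, adjusted p = 0.181 unblocked and 0.0331 blocked; 1.0 without challenged pool 1), with number 1 the highest in both groups. Of the dendritic cell genes 1 of 16 rose: Itgax, which encodes CD11c, was at 12.4, 4.55 and 4.36 CPM and at 24.6, 16.2 and 14.6 CPM (adjusted p = 0.258 unblocked and 0.0440 blocked).

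Among all tested genes with a promoter in the table, those with the ISRE core had a median log2 fold change of 0.13 (474 genes), and those without it -0.01 (11369 genes). Of those with the core 36.5% were higher in all 3 pairs and 2.74% passed as higher with the block. Of those without it the shares were 20.9% and 1.06%. The core stood in 12 of 19 antiviral genes (63.2%), 5 of 17 class I genes (29.4%), 1 of 9 class II genes (11.1%) and 2 of 11 cytotoxic genes (18.2%). It stood in 0 of 18 muscle genes. Among genes that rose with the block it was in 13 of 134 (9.7%), and among those that fell in 1 of 65 (1.54%). With the block in 6 pools it was in 44 of 260 (16.9%) and 2 of 114 (1.75%). Antiviral genes that held the core had log2 fold changes with a median of 2.66 (12 genes), and those without it 1.89 (7 genes), whereas in the class I list the order was turned, at 1.10 (5 genes) and 1.60 (12 genes). The GAS letters (TTC, any 3 bases and GAA), which read the same on both strands and whose end can overlap the start of an ISRE core, were in 8.4% of tested genes, 11.2% of those that rose and 10.8% of those that fell. They were in 6 of 11 guanylate-binding and IRG genes (54.5%). The MEF2 letters (CTA, any 4 bases and TAG), named for a factor of muscle genes and the same on both strands, were in 3.83% of tested genes, 10.8% of those that fell and 2.24% of those that rose, but in 1 of 18 genes of the muscle list (5.56%). These matches are descriptions of letters in a window, and the genes of a list share families and promoters.

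B and plasma cell genes rose in 4 of 12 tested members with the block (0 without it, where 7 had an unadjusted p under 0.05 in edgeR and DESeq2 called 2). Their median log2 fold change was 1.92, between 1.10 without challenged pool 1 and 3.86 without unchallenged pool 1. Unchallenged pool 1 already held these transcripts. Igkc, the kappa light chain, was at 18.7, 0.153 and 0.892 CPM in unchallenged and 248, 24.7 and 47.8 CPM in challenged pools (log2 4.04, SE 1.73, adjusted p = 0.374 unblocked and 0.0200 blocked; 7.76 without unchallenged pool 1 and 2.47 without challenged pool 1). Jchain, the joining chain of polymeric antibodies, was at 5.23, 0.0765 and 0.472 CPM and at 68.3, 17.8 and 15.3 CPM. Its blocked log2 fold change was 4.78 (SE 0.64, adjusted p = 0.0206). Without the block it was 4.15 (adjusted p = 0.181), and 7.02 without unchallenged pool 1. Ighm, which encodes the heavy chain of IgM, stood at 47.1, 13.2 and 8.66 CPM and at 287, 93.9 and 35.3 CPM, groups that overlapped although each pair rose (adjusted p = 0.216 unblocked and 0.0117 blocked; log2 2.59, and 1.49 without challenged pool 1). Ighg1, which encodes the IgG1 chain and is named after its values were seen, had 0 counts in the 3 unchallenged pools and 531, 228 and 750 in the challenged pools, at least 577-fold higher with the same floor. Over 9 libraries Ighg1 did not pass in edgeR (adjusted p = 0.126 unblocked and 0.0531 blocked), while it did with the block in 6 pools (adjusted p = 0.00937). Ighg2b had 0 and 274 counts, of which 269 were in challenged pool 1 and 0 in challenged pool 3, at least 105-fold higher over the group. Ms4a1, a surface marker of B cells before they become plasma cells and named after its values were seen, had 5 and 26 counts in the 2 groups, too few to be tested.

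Of 12 eosinophil entries 7 were among the deposited genes and tested, and 2 rose. The entries Prg2, Prg3, Epx, Ear1 and Ear6 were absent from the deposited counts and could not be examined. Ccr3, the receptor for eotaxin, was at 2.30, 0.918 and 0.367 CPM in unchallenged and 15.7, 10.4 and 3.88 CPM in challenged pools. Pools fell in the same order in both groups, and the log2 fold change was 3.06 (SE 0.82, adjusted p = 0.149) without and 3.2 (SE 0.29, adjusted p = 0.00874) with the block, and 3.92 without unchallenged pool 1. Siglecf, a surface lectin of eosinophils, was at 0.993, 1.03 and 0.525 CPM and at 9.58, 4.25 and 2.51 CPM (log2 2.66, SE 0.69, adjusted p = 0.137 unblocked and 0.0339 blocked; 1.98 without challenged pool 1). Of the type 2 alarmins, receptors and targets 1 of 15 rose. Arg1, an arginase of alternatively activated macrophages and of epithelium, was at 192, 77.2 and 123 CPM and at 737, 260 and 311 CPM (log2 1.74, SE 0.42, adjusted p = 0.121 unblocked and 0.0356 blocked; 1.13 without challenged pool 1). Chil4, a chitinase-like gene of type 2 inflammation named after its values were seen, was listed at 0 in the unchallenged pools and at 9.58, 0.134 and 1.25 CPM in the challenged pools. Over 9 libraries Chil4 did not pass in edgeR (adjusted p = 0.187 unblocked and 0.124 blocked), while it did with the block in 6 pools (adjusted p = 0.0360). Il33, the epithelial alarmin and also named after its values were seen, was at 151, 149 and 142 CPM and at 159, 148 and 111 CPM (adjusted p = 0.956 unblocked and 0.808 blocked).

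Of 9 tested mast cell genes, 0 passed in any of the 3 edgeR fits or in DESeq2 (without the block 1 higher and 1 lower had an unadjusted p under 0.05), and the pair medians were -0.29, 0.88 and 0.24. Kit, the stem cell factor receptor that mast cells need, was at 148, 142 and 182 CPM in unchallenged and 97.2, 139 and 147 CPM in challenged pools. Mcpt4, a connective tissue mast cell protease, was at 10.6, 10.9 and 9.92 CPM and at 8.65, 15.8 and 11.7 CPM (log2 0.21, or -0.05 without challenged pool 2, SE 0.45, adjusted p = 0.933). Kit is also made by melanocytes.

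Myeloid cells differed by pool. Of 19 macrophage and monocyte genes 3 rose with the block, with a median of 0.50. Fcgr3, a low-affinity IgG receptor, was at 31.5, 25.7 and 15 CPM in unchallenged and 86.5, 49.9 and 29.2 CPM in challenged pools, with overlapping groups and a rise in each pair (log2 1.20, adjusted p = 0.230 unblocked and 0.0414 blocked; 0.72 without challenged pool 1). Of 16 neutrophil and IL-1 family genes 2 rose, and the list's median of 2.23 was 0.00 without challenged pool 1, with pair medians of 2.62, 0.50 and 0.94. Ltf (lactoferrin), an iron-binding antimicrobial protein of neutrophil granules and of glands, was at 211, 220 and 181 CPM and at 743, 527 and 382 CPM (log2 1.43, SE 0.25, adjusted p = 0.0839 unblocked and 0.0196 blocked). All 3 challenged pools were above all unchallenged ones. Retnlg, a neutrophil granule gene, was at 1.20, 0.612 and 0.840 CPM and at 30.6, 6.00 and 2.74 CPM (log2 3.89, SE 1.0, adjusted p = 0.138 unblocked and 0.0309 blocked; 2.31 without challenged pool 1). Il1b, named after its values were seen, showed the extreme of this pattern at 2.40, 0.956 and 0.630 CPM and at 354, 5.51 and 1.60 CPM (adjusted p = 0.187 unblocked and 0.0903 blocked).

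Of 10 tested adhesion molecules by which leukocytes leave the blood 4 rose with the block (1.18% of all tested genes did). Among the 4 were Itgb2, Itgal and Selplg, which are genes of the leukocyte itself. Itgb2, the beta-2 integrin chain, was at 34.3, 22 and 14.7 CPM in unchallenged and 94.5, 56.6 and 46.9 CPM in challenged pools (log2 1.48, SE 0.36, adjusted p = 0.124 unblocked and 0.00851 blocked). Itgal, which encodes the alpha chain of the LFA-1 integrin, was at 14.4, 7.35 and 7.77 CPM and at 62.0, 22.2 and 20.6 CPM (log2 1.83, and 1.12 without challenged pool 1; adjusted p = 0.167 unblocked and 0.0117 blocked). Of the vascular partners, named after their values were seen, Icam1 was at 23.4, 21.9 and 21.8 CPM and at 320, 23.7 and 36.4 CPM and did not pass (log2 2.50, SE 0.81, adjusted p = 0.222 unblocked and 0.287 blocked). Vcam1 was at 14.0, 10.1 and 6.72 CPM and at 87.0, 20.8 and 13.1 CPM (log2 1.97, SE 0.65, adjusted p = 0.230 unblocked and 0.0670 blocked). No difference between the leukocyte and the vascular members was tested.

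**Figure D4:**
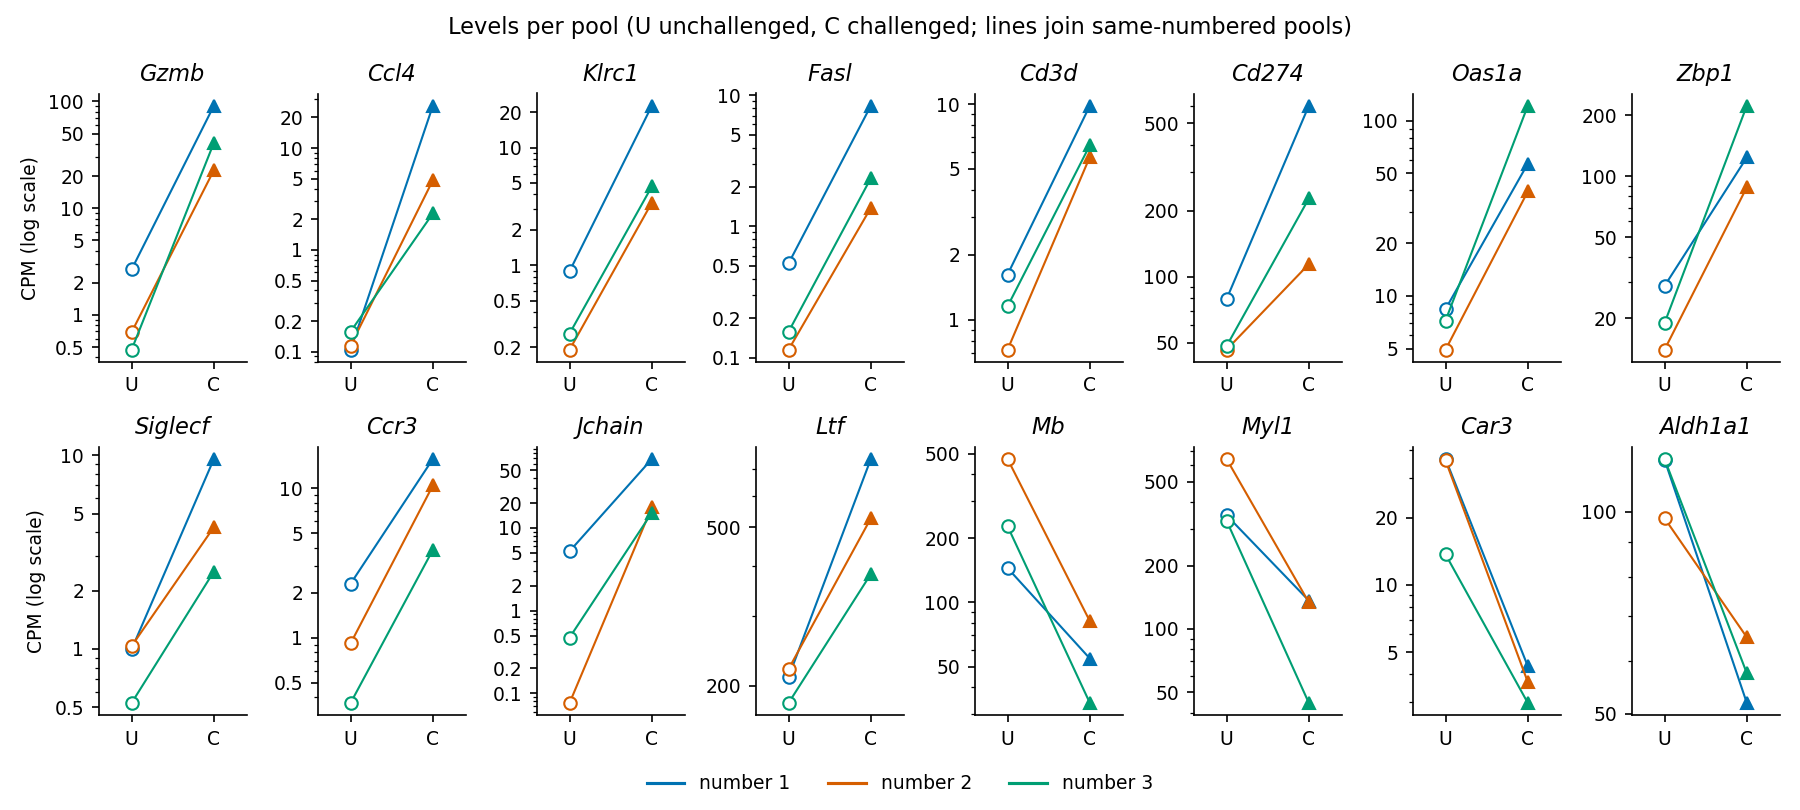
CPM (log axis) of 16 genes in the unchallenged (U) and challenged (C) control pools, with lines joining pools of the same number. In the first 12 genes each line rises, in the last 4 (Mb, Myl1, Car3 and Aldh1a1) each line falls, and pool 1 is often highest in both groups among leukocyte genes.

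Epithelial, stromal and vascular lists held few passing genes. Of 15 keratins 1 rose: Krt23, a stress-inducible keratin, was at 67.3, 57.0 and 74.7 CPM in unchallenged and 168, 121 and 130 CPM in challenged pools (log2 1.07, SE 0.22, adjusted p = 0.101 unblocked and 0.0335 blocked). Of 13 cornified envelope genes 0 passed in any of the 3 edgeR fits (4 had an unadjusted p under 0.05) and 2 in DESeq2, while Sprr1a, a cross-linked envelope protein, did not overlap between groups at 13.5, 46.5 and 17.1 CPM against 179, 68.1 and 101 CPM (adjusted p = 0.195 unblocked and 0.111 blocked). Of 22 junction genes 0 passed in any of the 3 edgeR fits (5 had an unadjusted p under 0.05) and 1 in DESeq2, and 16 were higher in all 3 pairs by small amounts, with pair medians of 0.09, 0.23 and 0.18. Goblet cell and mucin genes differed in sign between pairs, with medians of -0.44, 1.82 and -0.90 and 0 of 12 passing in any of the 3 edgeR fits or in DESeq2 (0 had an unadjusted p under 0.05). Muc5ac was at 528, 76.4 and 146 CPM and at 366, 888 and 46.8 CPM, higher in pair 2 and lower in pairs 1 and 3. Muc4, a membrane mucin, was at 3297, 2702 and 2166 CPM and at 3876, 4068 and 2861 CPM.

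Of 22 collagens and matrix genes 0 passed in either fit of edgeR over 9 libraries (1 higher and 1 lower had an unadjusted p under 0.05), and the median was -0.23. The block in 6 pools called 1 higher, and DESeq2 without the block 1 higher and 1 lower. Blood endothelial genes had a median of -0.71 (-0.39 without unchallenged pool 2). Of the 14, 9 were lower in all 3 pairs (22.8% of all tested genes were). In either edgeR fit of 9 libraries 0 passed (4 had an unadjusted p under 0.05). With the block in 6 pools 1 was lower, and DESeq2 called 0. Kdr, the main receptor for VEGF-A, was at 66.4, 64.8 and 67.1 CPM in unchallenged and 30.4, 58.6 and 63.1 CPM in challenged pools, all lower, though by little in pools 2 and 3. Lymphatic endothelial genes had a median of -0.27 with 0 of 13 passing in any of the 3 edgeR fits or in DESeq2 (0 had an unadjusted p under 0.05). Lyve1, a receptor for hyaluronan, was at 110, 111 and 74.2 CPM and at 58.7, 94.6 and 68.7 CPM. Vegfb, a growth factor of the VEGF family, was at 26.5, 44.6 and 34.6 CPM and at 17.2, 31.6 and 22.1 CPM (adjusted p = 0.391 unblocked and 0.132 blocked). Cell cycle genes had pair medians of 0.42, -0.15 and 1.32, with 0 of 21 in the same direction in all 3 pairs and 0 passing in the same fits (0 had an unadjusted p under 0.05).

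Immediate early genes, which respond to signals within minutes, had 2 of 12 rising. Egr2 was at 2.98, 0.880 and 0.997 CPM in unchallenged and 47.0, 7.57 and 3.71 CPM in challenged pools (log2 3.59, SE 1.02, adjusted p = 0.176 unblocked and 0.0235 blocked; 1.81 without challenged pool 1). Egr3 was at 0.993, 0.268 and 0.735 CPM and at 26.1, 7.48 and 1.82 CPM (adjusted p = 0.113 unblocked and 0.0367 blocked, or 0.0558 with the block in the 6 control pools; log2 4.16, and 2.83 without challenged pool 1). Both factors are induced by antigen receptor signals in lymphocytes. Gch1, which makes the first intermediate of tetrahydrobiopterin, was at 12.6, 9.07 and 11.3 CPM and at 86.1, 34.7 and 43.6 CPM (log2 2.32, SE 0.32, adjusted p = 0.0471 unblocked and 0.0117 blocked), while its list of 8 had a median of -0.16 and no other passing member.

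Among the named genes outside muscle and fat, Pfn2 and Aldh1a1 fell. Pfn2, a profilin that binds actin, was at 38.5, 39.9 and 36.2 CPM in unchallenged and 17.0, 19.8 and 16.5 CPM in challenged pools, the one gene lower in the fit without the block (log2 -1.10, SE 0.15, adjusted p = 0.0421 unblocked and 0.0196 blocked). Aldh1a1, a retinaldehyde dehydrogenase of the ocular surface, was at 119, 97.7 and 120 CPM and at 51.9, 65.0 and 57.5 CPM (log2 -0.95, SE 0.17, adjusted p = 0.0859 unblocked and 0.0331 blocked). It was the 1 member of 13 glutathione transferases and aldehyde dehydrogenases that passed. AA467197, a gene listed by its clone name, rose from 34.5, 34.3 and 33.5 CPM to 156, 91.7 and 118 CPM, with an SD of 0.563 CPM among the unchallenged pools (n = 3) and a log2 fold change of 1.84 (SE 0.19, adjusted p = 0.0183 unblocked and 0.0109 blocked).

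By list, 24 of the 42 had medians above 0 in all 3 pairs, 7 had medians below 0 in all 3 and 11 did not keep 1 sign. Among neighbouring tissues other than muscle and fat, the melanocyte, Schwann cell, red blood cell and meibomian gland lists had medians of 0.17, -0.19, 0.00 and -0.02. The melanocyte median rests on 2 of 8 entries. Of the pigment cell genes with too few counts to be tested, Dct had 41 counts in the unchallenged and 3 in the challenged pools, 35 of the 41 in unchallenged pool 2. Tyr had 7 and 0, and Tyrp1 13 and 4. These 3 are named after their values were seen. Corneal Kera was at 7.37, 14.7 and 13.0 CPM in unchallenged and 7.17, 3.22 and 1.25 CPM in challenged pools, and Krt12, the corneal keratin, at 3.97, 2.64 and 7.19 CPM and at 15.4, 0.851 and 0.969 CPM. Their part in the results was not tested.

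**Figure D5:**
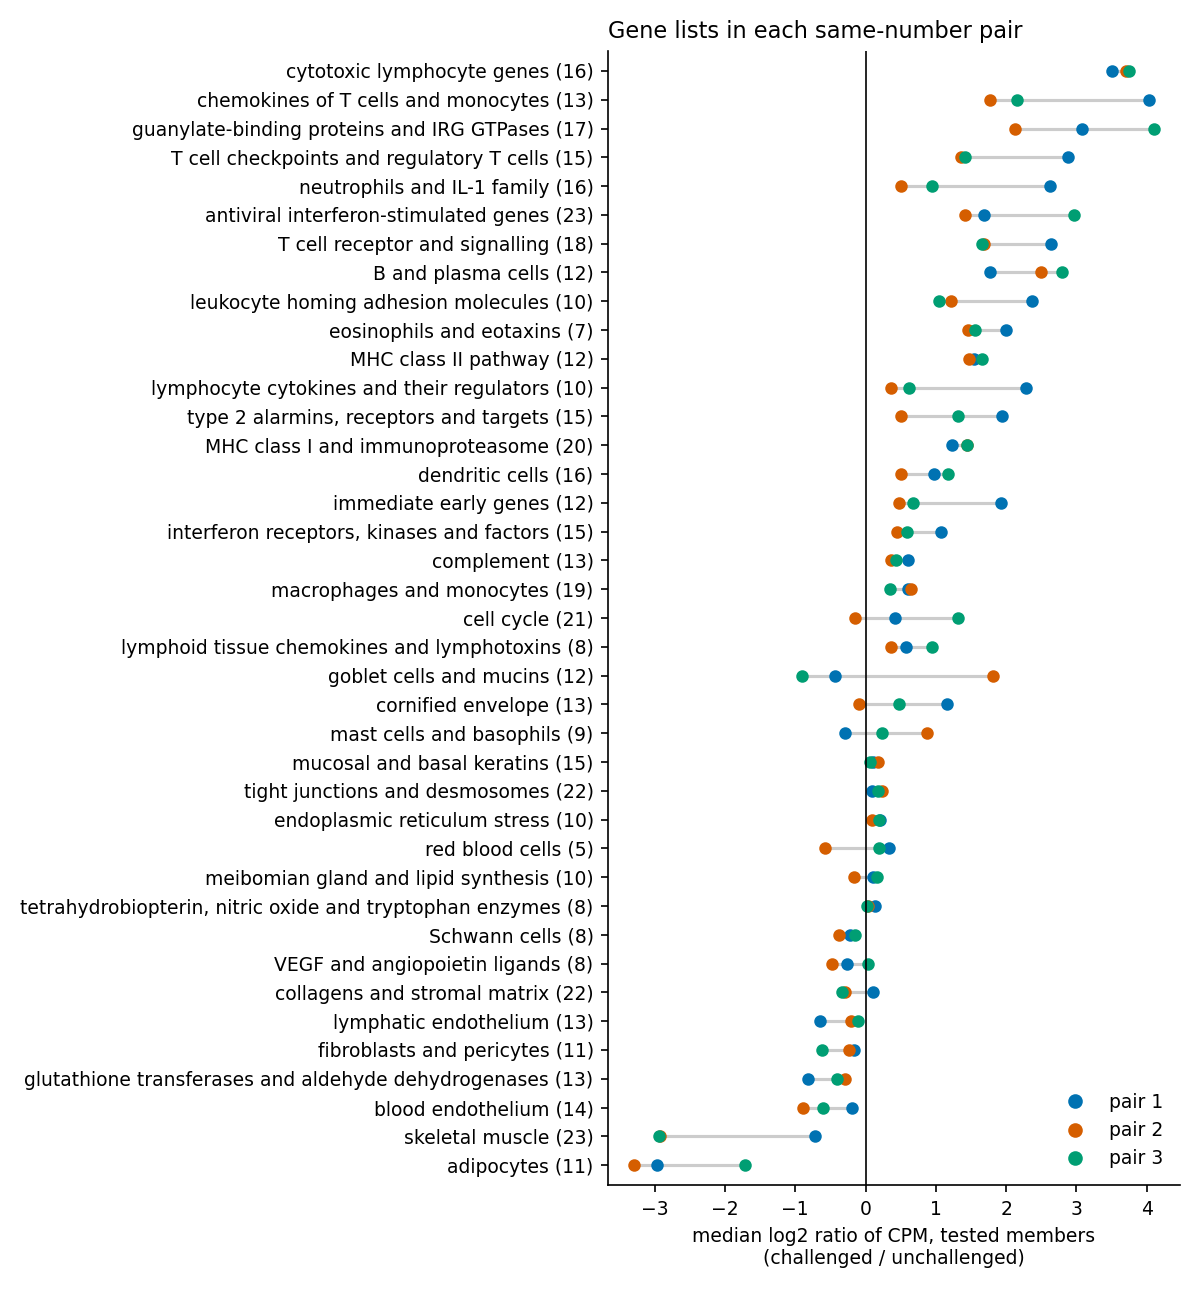
Median log2 ratio of CPM (challenged over unchallenged) of the tested members of each list with at least 5, in pairs 1 to 3 (dots; members in brackets; the grey bar spans the pairs). Cytotoxic, MHC class I and MHC class II lists have close dots, chemokine and neutrophil lists have pair 1 far to the right, and guanylate-binding protein and antiviral lists have pair 3 there.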

How the data were processed

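Messenger RNA of pooled mouse conjunctiva was measured in 9 libraries. The authors deposited whole-number counts per gene. The submitters' processing notes name HISAT2, Bowtie2, DESeq2 and the mm39 build. No source used here gives the tools' versions, the counter, its strand setting or the annotation. Counts were scaled with TMM factors, filtered with filterByExpr (15613 of 20603 genes left) and tested with edgeR 4.0.16 (R 4.3.3) by quasi-likelihood across all 9 libraries, the 3 knockout pools included to estimate the spread, with Benjamini-Hochberg adjustment at 0.05. The fit was first made without and then with the replicate number as a block, since same-number control pools correlated at 0.443, 0.229 and 0.461. The knockout pools were not part of that check. The block over 9 libraries takes in their numbers, so there they also help to estimate the effect of the number. DESeq2 1.42.0 and limma 3.58.1 (voom) were alternatives. The scripts were also run on simulated data with less spread than was estimated here. Where the number had an effect there, the knockout pools shared it. That run therefore does not show how often the fits err on these data.

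The members and the 42 gene lists were chosen with earlier results of these data known. Named genes were those passing without the block, those with the largest blocked changes whose groups did not overlap, leading and abundant members of each list and the Y-linked genes. Others are said to be named after their values were seen. Promoters came from RefSeq (GRCm38.p6), another build than the counts, and were matched by symbol: 11843 of 15613 tested genes matched. Some genes of these lists are counted in them but not reported here by name.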

Additional observations from a re-analysis of the deposited data

How the results depend on the processing

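Without the block, 10 genes passed. The count was 20 with no filter on low counts, 753 with the DESeq2 Wald test (436 higher, 317 lower), 6 with limma-voom and 1 in the 6 control libraries alone. Leaving out 1 library at a time gave 0 to 122. The replicate number as a block gave 267 over 9 libraries and 498 over the 6 control libraries. For the blocked count of 267 the values were 577 with no filter, 1204 with DESeq2 and 498 in the 6 control libraries, and leaving out 1 library gave 0 (unchallenged pool 2 or 3), 5 (challenged pool 3), 30 (knockout pool 3), 88 (challenged pool 1), 531 (knockout pool 2) and 541 (knockout pool 1). DESeq2 size factors and a stricter filter kept both counts within 1.5 times. The blocked fit moved the other calls as stated beside each gene. The cause of these differences was not tested.

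Of 142 genes examined in 17 settings, 22 changed sign in at least 1 setting, none of which passed either edgeR fit of 9 libraries. Their log2 fold changes, each with 1 library left out, ranged as follows: Mcpt4 -0.0485 to 0.39, Muc1 -0.23 to 0.31, Tgm1 -0.0618 to 0.68, Col3a1 -0.49 to 0.0698, Fbln1 -0.29 to 0.14, Pdpn -0.0679 to 0.17, Vegfa -0.36 to 0.0547, Fasn -0.0133 to 0.28, Mitf -0.0737 to 0.40, Mbp -0.0823 to 0.26, Krt12 -2.33 to 0.82, Hbb-bs -0.13 to 0.57, Hba-a1 -0.11 to 0.20, Ddx3y -0.34 to 0.48, Eif2s3y -0.15 to 0.56, Flt4 -0.34 to 0.17, Kdm5d -0.38 to 0.15, Uty -0.83 to 0.42, Muc5ac -0.28 to 1.97, Krt4 -0.13 to 0.16, Il33 -0.19 to 0.0562 and Krt5 -0.30 to 0.34. Other reversals were Muc1 at -0.0104 with limma-voom and -0.000302 with the replicate block in 6 libraries. Krt12 was at -0.91 with limma-voom and at -0.47 and -0.78 with the replicate block in 9 and 6 libraries, and Hba-a1 at -0.0089 with the replicate block in 9. Genes under about 3 counts a library, 0.115 to 0.185 CPM, could not be compared at this depth.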
